A study of Mus musculus with 6 samples.

Results

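The 8 genes described here encode the enzymes that place, copy and remove DNA methylation: the oxidases Tet1, Tet2 and Tet3, the glycosylase Tdg, the methyltransferases Dnmt1, Dnmt3a and Dnmt3b, and the DNMT1 partner Uhrf1. They were taken by name from a table of raw read counts for 53670 genes, and all 8 were among the 15915 genes left by a filter on low counts. They were chosen for their function with the values of these libraries already known, so their differences between genotypes are given as descriptions, with a standard error (SE) and no test. The RNA came from islets, the endocrine cell clusters of the pancreas, which had been isolated with collagenase from mice 6 weeks of age. There were 3 knockout libraries (KO, Paupar -/-) and 3 wild-type libraries (WT, Paupar +/+). Paupar is a long noncoding RNA gene beside Pax6, and the labels name no other allele and no treatment. The labels do not say how the KO allele was made, whether all cells of the mouse carry it, or whether a library came from 1 animal or from a pool. Nothing in them ties the replicates to separate animals, so a p-value here reflects only the spread among these libraries.

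DNA methylation in mammals is carried mainly by cytosines followed by guanine (CpG). DNMT3A and DNMT3B methylate new sites, and DNMT1, brought to freshly copied DNA by UHRF1, renews the pattern when cells divide. The TET enzymes oxidise methylcytosine to hydroxymethylcytosine and further forms, using oxygen, iron and alpha-ketoglutarate, and TDG cuts out the further oxidised bases so that repair can restore an unmodified cytosine. In mouse beta cells, Dnmt1 has been linked to the keeping of beta cell identity, and Dnmt3a to silence of metabolic genes that mature beta cells keep low.

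The libraries were of similar depth, with 26915566 to 27285009 counts in KO and 25733194 to 26969781 in WT. Paupar itself had 4, 0 and 4 counts in KO replicates 1 to 3, against 177, 252 and 111 in WT replicates 1 to 3. Endocrine markers such as Ins1, Ins2 and Gcg took 332650 to 337322 CPM (read counts scaled to a common library size, here by trimmed mean of M values) in KO and 275799 to 292550 in WT. This sum does not describe each endocrine marker. Of the 14 tested, 5 had a log2 fold change of KO over WT below 0, Gcg among them at -0.19 (SE 0.21). Acinar markers took 15495 to 40517 CPM in KO and 20525 to 65595 in WT, endothelial markers 589 to 609 in KO and 412 to 520 in WT, and leukocyte markers 147 to 307 in KO and 154 to 307 in WT. None of these lists summed to 0 in any library, and the part of the other cell types in the differences below was not tested. Xist, which is transcribed from the inactive X chromosome, had 0, 1120 and 862 counts in KO and 1, 6 and 3 in WT, while the Y-linked Ddx3y had 1693, 2 and 0 in KO and 1715, 1316 and 1830 in WT. KO replicates 2 and 3 thus carried female transcripts and the other 4 libraries male ones, so KO replicate 1 did not come from the same animals as the other KO libraries, and KO replicate 1 is also set alone against WT where a difference rests on it.

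The 3 Tet genes were lower in every KO library than in any WT library. Tet2 had the largest difference of the 8 genes, at 40.7% of the WT level, followed by Tet3 at 53.6%, and Tet1 stood at 66.1%, close to the methyltransferase Dnmt3a at 64.7%. Their promoters are shown because all members of this family separated the genotypes. Each sequence runs from 250 bases before the annotated start to 50 after it, 5′ to 3′, in lower case with each CpG in capitals. The sequences are RefSeq's for the mouse assembly GRCm38.p6 and match the mm9 build of the count files at 1 place each. The Tet1 start in this table lies inside the gene as GENCODE places it, downstream of the GENCODE start, while those of Tet2 and Tet3 lie at the GENCODE gene starts.
Tet1, chr10:62350023-62350322, minus strand: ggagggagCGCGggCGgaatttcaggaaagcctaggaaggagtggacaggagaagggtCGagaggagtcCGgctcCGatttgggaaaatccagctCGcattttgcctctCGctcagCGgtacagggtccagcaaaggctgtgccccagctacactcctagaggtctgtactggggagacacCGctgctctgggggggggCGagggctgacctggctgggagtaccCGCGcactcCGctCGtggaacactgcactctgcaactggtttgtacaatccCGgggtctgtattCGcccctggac
Tet2, chr3:133207305-133207604, minus strand: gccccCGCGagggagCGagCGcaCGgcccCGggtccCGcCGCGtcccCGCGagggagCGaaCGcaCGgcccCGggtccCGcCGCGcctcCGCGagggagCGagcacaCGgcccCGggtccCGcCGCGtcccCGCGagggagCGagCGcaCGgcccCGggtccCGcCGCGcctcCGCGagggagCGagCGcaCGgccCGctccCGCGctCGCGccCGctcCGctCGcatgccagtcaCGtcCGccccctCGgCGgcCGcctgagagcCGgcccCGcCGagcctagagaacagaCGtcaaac
Tet3, chr6:83391623-83391922, minus strand: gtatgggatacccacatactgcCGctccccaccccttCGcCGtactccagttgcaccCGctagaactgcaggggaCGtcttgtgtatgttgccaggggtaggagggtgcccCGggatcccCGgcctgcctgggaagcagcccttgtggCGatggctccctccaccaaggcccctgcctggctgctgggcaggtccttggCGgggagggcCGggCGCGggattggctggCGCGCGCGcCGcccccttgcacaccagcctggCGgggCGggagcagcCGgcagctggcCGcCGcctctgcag
The Tet2 promoter held 57 CpG sites in its 300 bases and a GC content of 81.3%, and 0.152% of 32841 RefSeq promoters of this length held as many CpG sites. Part of this density lies in a run of repeats, in which the 12 bases ccgcgagggagc come back in 5 copies, each 42 bases after the one before. The Tet3 promoter held 22 CpG sites and the Tet1 promoter 17, against a median of 7 over all promoters, and 23.1% and 31.4% of promoters held as many as these. All 3 contained GGGCGG, searched on both strands and present in 35.7% of promoters. CCAAT, present in 37.4%, was found in Tet3 alone of the 3, and TATAAA, present in 13.6%, in none of them. Such matches describe the letters of these windows only.

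Tet2 encodes the TET enzyme that has lost its own CXXC DNA-binding domain (chromosome 3, 133126643 to 133207354 in mm9, minus strand, 9203 bases of exon). It had 185, 201 and 244 counts in KO replicates 1 to 3 and 561, 595 and 422 in WT replicates 1 to 3. Scaled for depth these are 7.04, 7.68 and 9.20 CPM in KO, against 21.0, 22.1 and 15.6 CPM in WT. The highest KO library lay well below the lowest WT library, which was WT replicate 3. The means were 7.97 ± 1.11 CPM in KO and 19.6 ± 3.46 CPM in WT (SD, n = 3 each), a log2 fold change of KO over WT of -1.30 (SE 0.17). Of the 15915 genes, 0.829% had a lower fold change.

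Tet3, which encodes the TET enzyme known for oxidising the paternal genome of the mouse zygote and for its expression in neurons, lies on chromosome 6 (83312367 to 83391672, minus strand, 11086 bases of exon). It had 489, 587 and 545 counts in KO libraries and 1034, 1162 and 893 in WT libraries. In CPM, the KO libraries held 18.6, 22.4 and 20.6, and the WT libraries 38.7, 43.2 and 33.1. The KO libraries lay close together and all below WT replicate 3, again the lowest WT library. Tet3 averaged 20.5 ± 1.90 CPM in KO and 38.3 ± 5.06 CPM in WT, a log2 fold change of -0.90 (SE 0.12).

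Tet1, the founding member of the family, best known in mouse embryonic stem and germ cells, lies on chromosome 10 (62267318 to 62361866, minus strand, 14710 bases of exon). It had 207, 257 and 270 counts in KO libraries, against 389, 410 and 335 in WT libraries. The levels were 7.88, 9.81 and 10.2 CPM in KO and 14.6, 15.2 and 12.4 CPM in WT. The gap between the groups was narrower than for Tet2 and Tet3, but no library crossed it. The means were 9.29 ± 1.24 CPM in KO and 14.1 ± 1.47 CPM in WT, a log2 fold change of -0.60 (SE 0.14).

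Tdg, the glycosylase that acts after the TET enzymes, did not separate the groups (chromosome 10, 82092573 to 82113544, plus strand). It had 245, 302 and 309 counts in KO libraries and 360, 321 and 264 in WT libraries. These were 9.33, 11.5 and 11.7 CPM in KO and 13.5, 11.9 and 9.78 CPM in WT. The lowest and the highest values differed by library and not by genotype, since KO replicate 1 and WT replicate 3 were both low. Its log2 fold change was -0.11 (SE 0.16), and without WT replicate 1 it came to 0.0039. A pseudogene, Tdg-ps, held 2, 1 and 1 counts in KO and 6, 4 and 0 in WT, so few reads were counted at that copy.

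**Figure D1:**
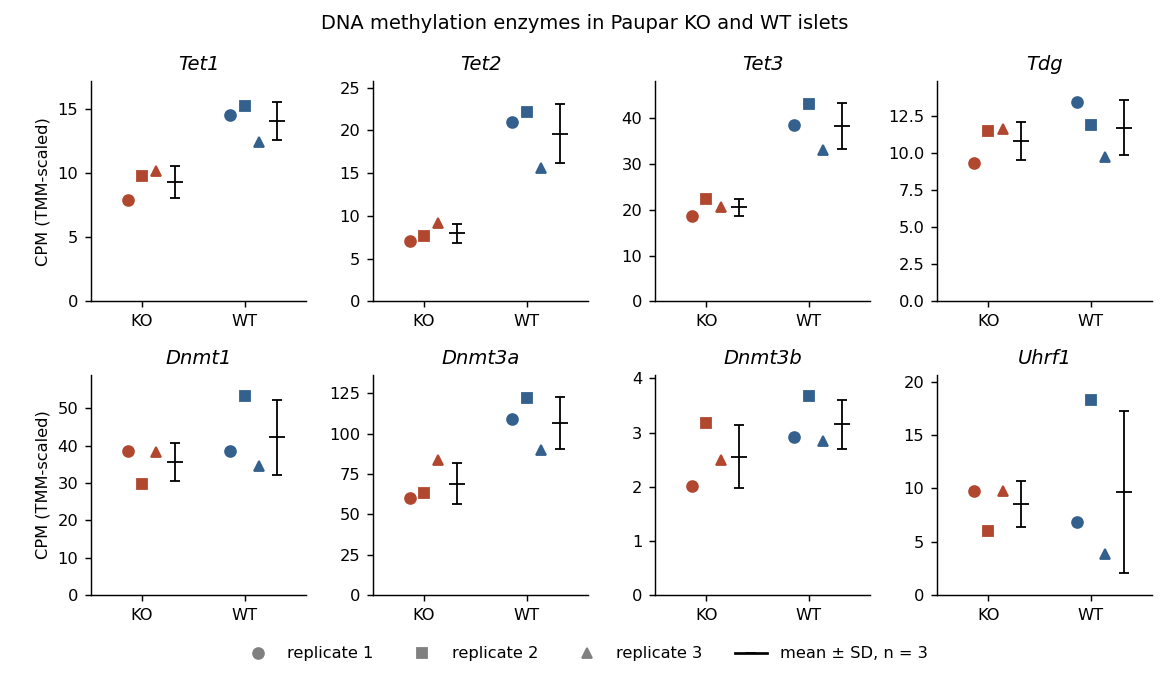
Level of each of the 8 genes in CPM on a linear axis, with 1 point per library, KO left of WT, and a bar at each group's mean with the SD as error. The KO points of Tet1, Tet2, Tet3 and Dnmt3a all lie below the WT points, and in the other 4 genes the groups overlap, most widely in Uhrf1.

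Among the methyltransferases, Dnmt3a alone had groups that did not overlap. Dnmt3a methylates new CpG sites and is the main such enzyme of most adult tissues (chromosome 12, 3806007 to 3914443, plus strand). It had 1572, 1663 and 2218 counts in KO libraries, against 2908, 3276 and 2416 in WT libraries, the largest counts of the 8 genes. In CPM, KO libraries held 59.8, 63.5 and 83.7 and WT libraries 109, 122 and 89.5. The gap was small, since KO replicate 3 came within a few CPM of WT replicate 3. Dnmt3a averaged 69.0 ± 12.8 CPM in KO and 106.7 ± 16.2 CPM in WT, or 64.7% of the WT level, with a log2 fold change of -0.63 (SE 0.16).

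Dnmt3b, the other de novo methyltransferase, most abundant in embryos and germ cells, had the lowest counts of the 8 genes (chromosome 2, 153475186 to 153513466, plus strand). It had 53, 83 and 66 counts in KO libraries and 78, 99 and 77 in WT libraries, or 2.02, 3.17 and 2.49 CPM in KO and 2.92, 3.68 and 2.85 CPM in WT. KO replicate 2 lay inside the WT range. The log2 fold change was -0.30 (SE 0.24), an error nearly as large as the difference. An antisense gene overlaps its start and held 23, 59 and 30 counts in KO and 28, 28 and 24 in WT. Among the KO libraries both genes were highest in replicate 2. Whether the counting used strand is not stated in these sources, and without it reads of the 2 genes cannot be told apart.

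Dnmt1, the maintenance methyltransferase, overlapped between genotypes (chromosome 9, 20711650 to 20757317, minus strand). It had 1014, 778 and 1017 counts in KO libraries and 1030, 1435 and 932 in WT libraries, or 38.6, 29.7 and 38.4 CPM in KO and 38.5, 53.4 and 34.5 CPM in WT. KO replicate 2 was the lowest library and WT replicate 2 the highest, and the other 4 lay close together. The log2 fold change of -0.25 (SE 0.18) rested on WT replicate 2, without which it was -0.04.

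Uhrf1, which recognises hemimethylated CpG sites behind the replication fork and is made mainly in dividing cells, varied more within genotypes than any of the other 7 genes (chromosome 17, 56442744 to 56462909, plus strand). It had 257, 157 and 259 counts in KO libraries and 182, 492 and 104 in WT libraries. The levels were 9.78, 6.00 and 9.77 CPM in KO, all inside the WT range of 6.81, 18.3 and 3.85 CPM. The log2 fold change was -0.18 (SE 0.54), with 0.68 when WT replicate 2 was left out and -0.55 when WT replicate 3 was left out. Its direction was not stable: it was below 0 in 10 of 17 alternatives, and turned without WT replicate 2, without KO replicate 2 (0.02) and with a sex covariate (0.02) among others.

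Cell cycle genes moved with Uhrf1 across libraries. The summed level of 22 such genes, among them Mki67, Top2a and Mcm2, was 273, 202 and 280 CPM in KO and 233, 366 and 172 CPM in WT. The highest library in both was WT replicate 2 and the lowest WT replicate 3, with KO replicate 2 next to the lowest in both. Of the 22 genes 0 were called by edgeR, beside 0.170% of all genes. In either direction 0 had an unadjusted p below 0.05, beside 9.38% of all genes lower and 6.99% higher. The B cell gene Ms4a1 had 50.9, 25.7 and 34.5 CPM in KO and 62.3, 77.5 and 8.71 CPM in WT, and the leukocyte gene Ptprc 61.5, 36.2 and 35.7 CPM in KO and 104, 101 and 21.3 CPM in WT. Ms4a1 and Ptprc were named after their values were seen and do not stand for all leukocyte markers. Of the 9 tested, 3 had a log2 fold change below 0, Ms4a1 and Ptprc among them. Among WT libraries, the leukocyte markers Lyz2 and Csf1r were highest in replicate 3, where Ms4a1 and Ptprc were lowest. The part of leukocytes and of dividing cells in the spread of Uhrf1 and Dnmt1 was not tested. In bulk libraries, fewer cells of a type and less RNA per cell cannot be told apart.

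**Figure D2:**
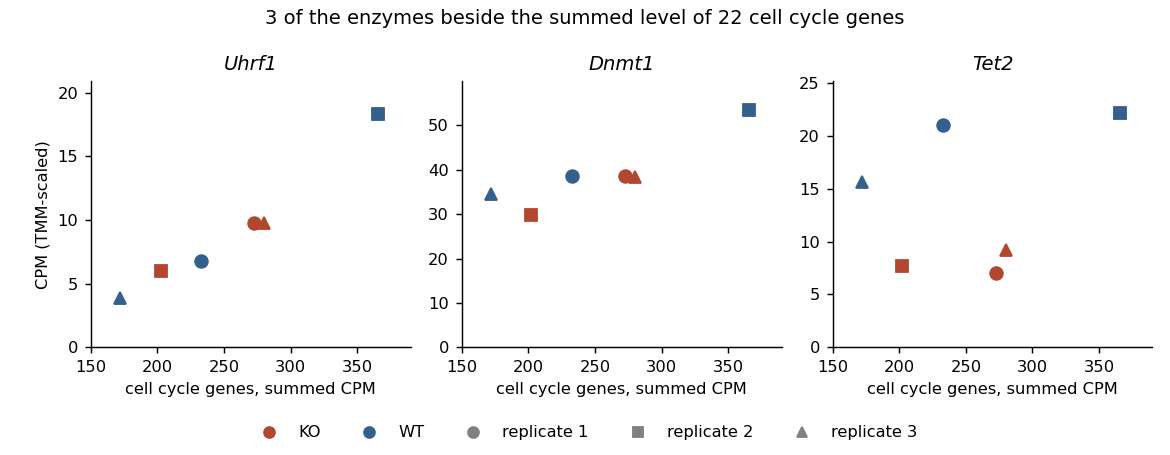
Uhrf1, Dnmt1 and Tet2 in CPM against the summed CPM of 22 cell cycle genes in the same library, with 1 point for each of the 3 KO and 3 WT libraries. WT replicate 2, at 366 CPM of cell cycle transcripts, holds the highest value of each gene. Tet2 is lower in every KO library than in any WT library. The sums run from 202 to 280 CPM in KO and from 172 to 366 CPM in WT, so the ends of the range hold WT libraries only.

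All 8 genes had a log2 fold change below 0, with a median of -0.45, beside a median of 0.0023 over all 15915 genes, of which 49.7% were below 0. Of the 8, 4 had every KO library below every WT library, a pattern found in 12.1% of all genes tested. edgeR's quasi-likelihood test with Benjamini-Hochberg adjustment called 0 of the 8 genes at an adjusted p below 0.05, and 0.170% of all genes were called lower. At an unadjusted p below 0.05, 4 of the 8 were lower, as were 9.38% of all genes. DESeq2 called the same 4 genes (Tet1, Tet2, Tet3 and Dnmt3a) lower at an adjusted p below 0.05, as it did 4.10% of the genes it gave an adjusted p, while 1.96% were called higher, and limma-voom called 0 of the 8 and 0 of all genes. At an adjusted p below 0.1 edgeR called Tet2 and Tet3 lower, as it did 0.785% of all genes. The genes had been chosen with this contrast known, so nothing is read from these counts.

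**Figure D3:**
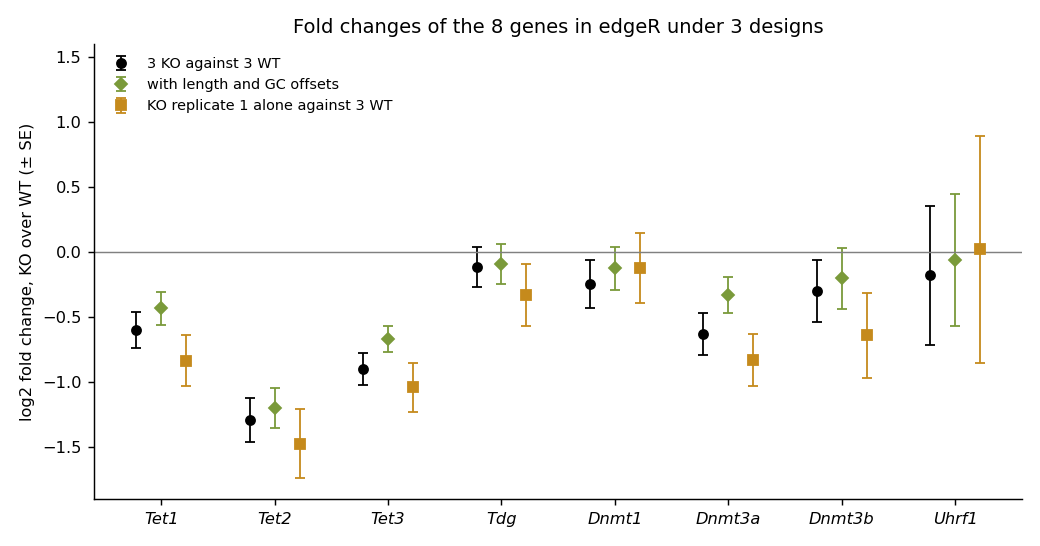
Log2 fold change of KO over WT for each of the 8 genes, with the SE as error bar, beside the same from KO replicate 1 alone against WT and from the fit with offsets on exonic length and GC content. Tet2 lies lowest under each, and Uhrf1, Tdg and Dnmt1 lie nearest to 0.

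The 4 genes whose groups did not overlap were also long ones. Tet1, Tet2, Tet3 and Dnmt3a fell in the fifth of genes with the most exonic sequence, from 6031 bases upward, and Tdg, Dnmt1, Dnmt3b and Uhrf1 in the length class below it, from 4178 to 6030 bases. The median log2 fold change of all genes was 0.09 in the class of the shortest genes and -0.10 in the longest. Among 13341 genes, a gene's deviation from its mean over libraries went with exonic length by a Spearman coefficient of -0.263, -0.195 and -0.045 in KO replicates 1 to 3 and 0.176, 0.134 and 0.156 in WT replicates 1 to 3, a description across genes that share these libraries. The coefficients with exonic GC content were -0.103, -0.068 and -0.2 in KO replicates 1 to 3. In WT replicates 1 to 3 they were 0.028, 0.286 and -0.005. A further fit used offsets that take out each library's smooth trend with exonic length and GC content, without separating the effect of each. In that fit, Tet2 had a log2 fold change of -1.20 (SE 0.15) and Tet3 of -0.67 (SE 0.10). Tet1 then came to -0.43 (SE 0.13) and Dnmt3a to -0.33 (SE 0.14), so Dnmt3a kept the smallest share of its difference among these 4.

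**Figure D4:**
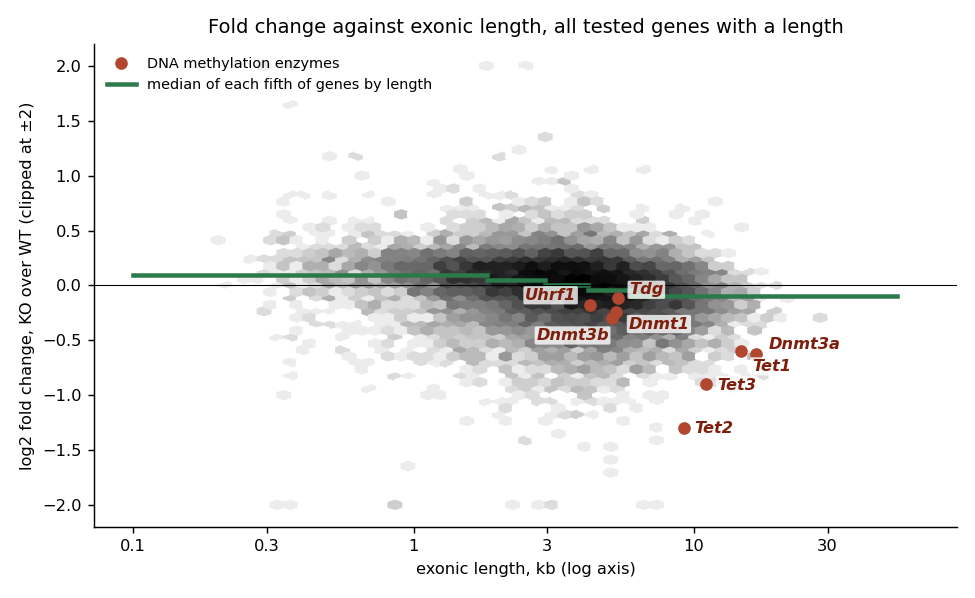
Log2 fold change of KO over WT against exonic length in kilobases on a log axis, with all annotated genes tested as grey hexagons, darker where more genes fall, the median of each of 5 length classes as a line, and the 8 genes labelled. The 3 Tet genes and Dnmt3a sit among the longest genes and below the median of their class, -0.10.

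With KO replicate 1, the male KO library, alone against the 3 WT libraries, these 4 genes lay farther below WT than in the comparison of all libraries. The log2 fold change was -1.47 (SE 0.26) for Tet2, -1.04 (SE 0.19) for Tet3, -0.84 (SE 0.20) for Tet1 and -0.83 (SE 0.20) for Dnmt3a. Dnmt3b had -0.64 (SE 0.33), Tdg -0.33 (SE 0.24), Dnmt1 -0.13 (SE 0.27) and Uhrf1 0.02 (SE 0.87). The lone library is taken to vary as the WT libraries do.

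Levels of different genes were compared as CPM per kilobase of exonic sequence. Dnmt1 stood highest in both genotypes, at 6.75 ± 0.961 CPM per kilobase in KO and 8.01 ± 1.88 in WT, and Dnmt3b lowest, at 0.501 ± 0.113 in KO and 0.617 ± 0.090 in WT. Dnmt3a came next to the top with 4.15 ± 0.770 in KO and 6.41 ± 0.975 in WT. Among the oxidases the order was the same in both genotypes, with Tet3 at 1.85 ± 0.172 in KO and 3.46 ± 0.457 in WT, Tet2 at 0.866 ± 0.121 in KO and 2.13 ± 0.376 in WT, and Tet1 at 0.632 ± 0.084 in KO and 0.957 ± 0.10 in WT. Tet3 was above Tet2, and Tet2 above Tet1, in each of the 6 libraries, with no overlap between the spreads of neighbouring Tet genes within a genotype. Tet3 stood below Tdg and Uhrf1 in KO and above both in WT. The ranges of Tdg and Uhrf1 overlapped in both genotypes, as did those of Uhrf1 and Tet3, so the order within each of these pairs does not differ beyond the spread. Per kilobase of exonic sequence, Tet3 lay above Tdg without overlap in WT. Dnmt1 and Dnmt3a overlapped in WT but not in KO. The order of these 2 depends on the length used, since the longest Dnmt3a transcript has 9685 bases against 16642 bases over all its exons, and per kilobase of that transcript Dnmt3a held 7.12 in KO and 11.02 in WT, above Dnmt1. Per kilobase of its longest transcript Tdg held 3.09 in KO and 3.35 in WT, and its order with Uhrf1 in WT turned, with Uhrf1 at 2.69. On that length Tet3 held 3.52 ± 0.464 in WT, and the Tdg mean lay within that SD. The gap between Tet3 and Tdg in WT thus depends on the length used.

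**Figure D5:**
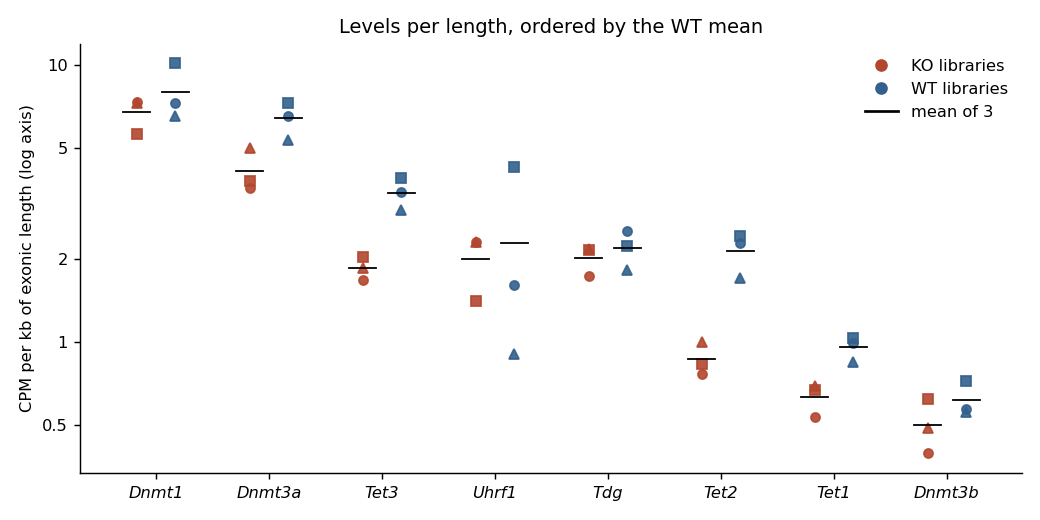
Level per kilobase of exonic sequence of the 8 genes on a log axis, with 1 point per library, a bar at each group's mean, and KO left of WT for each gene. Dnmt1 and Dnmt3a lie at the top, Dnmt3b and Tet1 at the bottom, and Tet2 and Tet3 show the widest gaps between KO and WT.

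Summed per kilobase, the 3 Tet genes held 2.98, 3.52 and 3.55 CPM in KO libraries, against 6.76, 7.34 and 5.53 in WT libraries. The sum of the 3 Dnmt genes was 11.3, 10.1 and 12.8 in KO and 14.4, 18.2 and 12.5 in WT. The Tet sums did not overlap between genotypes, and the Dnmt sums did. The ratio of the Dnmt sum to the Tet sum was 3.80, 2.86 and 3.61 in KO and 2.13, 2.48 and 2.26 in WT, higher in each KO library than in any WT library. Within the Tet sum, Tet2 made up 25.8% ± 2.27 in KO and 32.4% ± 1.53 in WT (SD, n = 3 each), with every KO share below every WT share. Tet1 made up 18.8% ± 0.780 in KO and 14.7% ± 0.572 in WT, with every KO share above, and the Tet3 shares overlapped at 55.3% ± 2.70 in KO and 52.9% ± 1.20 in WT. These ratios come from the same counts that led to the choice of the genes and carry no test. The levels behind them were not corrected for the trends with exonic length and GC content. The Dnmt sum also depends on the length used, as given above for Dnmt3a.

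For each of the 8 genes, the genes with the most similar pattern were sought among 12119 genes with a mean of at least 1 CPM, by the root mean square difference of log2 levels, each centred on its own mean, over the 6 libraries. Dnmt3a and Tet1 were each other's nearest among the 8, with a difference of 0.113, as were Tdg and Dnmt3b, with 0.192. The nearest of all genes to Tet1 were Ubn2 (0.037) and Cramp1l (0.039), and to Dnmt3a they were Gse1 (0.042) and Zfc3h1 (0.054). The nearest to Tet2 were Mirg, a noncoding RNA of the imprinted Dlk1-Dio3 region, at 0.148 and Kmt2a, a histone H3 lysine methyltransferase, at 0.149. This measure grows with a gene's own spread over libraries, so it ranks genes for 1 gene at a time and is not compared between the 8. Celsr3 (0.089) and Tnrc6b (0.094) were nearest to Tet3, and among the 8 Tet2 had Tet3 as its nearest at 0.216. Uhrf1 was nearest to Knl1 (0.090), which encodes a kinetochore protein, and Asf1b (0.125), a histone chaperone. Dnmt1 was nearest to Epb41l2 (0.061) and Vav2 (0.064), Tdg to Inpp5j (0.023) and Josd2 (0.042), and Dnmt3b to Dbndd1 (0.067) and Tjap1 (0.069).

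The rest of the pathway was followed in 7 lists with 70 genes tested, chosen by function. edgeR called 0 of these 70 genes in either direction, and the smallest adjusted p was 0.109. At an unadjusted p below 0.05, 12 were lower, beside 9.38% of all genes, and 6 were higher, beside 6.99%. DESeq2 called 6 of the 70 lower (among them Mbd6, Nsd1, Setd2, Setdb1 and Usp7) and 3 higher (Ahcyl2, Sdha and Sdhb), beside 4.10% and 1.96% of all genes it gave an adjusted p. limma-voom called 0 of all genes.

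Factors that direct de novo methylation through histone marks had the lowest median of the 7 lists. All 8 tested had a log2 fold change below 0, with a median of -0.25, and in 6 of the 8 every KO library was below every WT library, beside 12.1% of all genes. Setdb1, an H3K9 methyltransferase, stood at -0.38 (SE 0.10, adjusted p = 0.162 by edgeR), and Ehmt2, another H3K9 methyltransferase, -0.22 (SE 0.07, adjusted p = 0.223). Trim28, the corepressor of zinc finger proteins, held 107 ± 1.77 CPM in KO and 118 ± 0.509 in WT (log2 fold change -0.15, SE 0.05, adjusted p = 0.252), and Kdm1b, an H3K4 demethylase, -0.07 (SE 0.10). Nsd1 and Setd2, named after their values were seen, make the H3K36 marks that DNMT3 proteins bind. Nsd1 held 96.2 ± 7.80 CPM in KO and 141 ± 16.4 CPM in WT (log2 fold change -0.55, SE 0.11, adjusted p = 0.111). Setd2 held 71.1 ± 4.80 CPM in KO and 94.0 ± 4.96 CPM in WT (log2 fold change -0.40, SE 0.08, adjusted p = 0.109).

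Of 9 maintenance partners, 2 had every KO library below every WT library, beside 12.1% of all genes, and the median log2 fold change was -0.09. Uhrf2, the paralog of Uhrf1, had -0.15 (SE 0.06, adjusted p = 0.295 by edgeR) and Usp7, the deubiquitinase that binds DNMT1 and UHRF1, -0.29 (SE 0.07, adjusted p = 0.165), while the remodeller Hells had 0.07 (SE 0.38) and the sliding clamp Pcna 0.15 (SE 0.10). The list of 10 genes for readers of methylated CpG and related MBD proteins had a median of -0.13. In 4 of the 10, every KO library was below every WT library, beside the same 12.1%. Mbd1 had -0.18 (SE 0.08), Mbd2 0.15 (SE 0.08) and Mbd3 -0.01 (SE 0.06). Mbd6, named after its values were seen, had the lowest value of the list at -0.65 (SE 0.15, adjusted p = 0.152).

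Of the 4 tested partners of the TET enzymes, 1 had every KO library below every WT library and 2 every KO library above, beside 12.1% and 11.3% of all genes, and the median was 0.04. Ogt, the O-GlcNAc transferase that binds TET2 and TET3, had a log2 fold change of -0.07 (SE 0.13). Cxxc4, whose protein binds TET2 and lowers its level in mouse cells, had 0.15 (SE 0.08), Cxxc5 -0.16 (SE 0.09) and Dcaf1 0.14 (SE 0.07), and each of these 3 had groups that did not overlap. Of 18 genes of base excision and demethylation, 1 had every KO library above every WT library, beside 11.3% of all genes, and the median was -0.04. That gene was Smug1, a uracil glycosylase, with 0.19 (SE 0.08, adjusted p = 0.29 by edgeR).

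Genes around alpha-ketoglutarate, the TET cofactor, and around succinate and fumarate, which inhibit the TET enzymes, lay above 0 more often than below. Of 11 tested, 2 had a log2 fold change below 0 and 5 had every KO library above every WT library, beside 11.3% of all genes, and the median log2 fold change was 0.12. Idh3a, a subunit of the mitochondrial enzyme that makes alpha-ketoglutarate, had 0.31 (SE 0.10, adjusted p = 0.225 by edgeR) and Idh3b 0.12 (SE 0.08), while Idh1 had -0.05 (SE 0.10) and Idh2 0.08 (SE 0.09). Sdha and Sdhb, subunits of succinate dehydrogenase named after their values were seen, each had 0.29 (SE 0.08 for Sdha and 0.06 for Sdhb, adjusted p = 0.191 and 0.14). In the methyl donor cycle, 10 genes had a median of -0.09. In KO, 1 gene was wholly lower and 2 wholly higher, beside 12.1% and 11.3% of all genes. The genes for S-adenosylmethionine synthase subunits were Mat2a at -0.12 (SE 0.11), Mat2b at 0.14 (SE 0.06) and Mat1a at -0.10 (SE 0.18). Ahcy, which clears the used methyl donor, had -0.23 (SE 0.16).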

How the data were processed

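Pancreatic islet RNA of 3 KO and 3 WT libraries was analysed, grouped by the genotype in the labels. The authors deposited raw read counts per gene, whole numbers with no normalization, and each column was matched to its library by name (0 columns were left over). HISAT2 2.1.0, HTSeq, CASAVA 1.8.2, DESeq2 and the build mm9 are listed in the submitters' processing notes, with no annotation or strand setting. Unstranded counting would add reads of antisense and overlapping genes, and near-identical copies may share or lose reads. A set of 24 gene names had turned into dates and is not named.

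Counts were analysed with edgeR 4.0.16 in R 4.3.3. filterByExpr by genotype left 15915 genes. TMM-scaled libraries were tested for genotype with the quasi-likelihood F-test, Benjamini-Hochberg adjusted over all genes and called at an adjusted p below 0.05. Levels are CPM scaled by TMM, mean ± SD over 3 libraries. Totals were 25733194 to 27285009 counts, so the 3 counts that a count of 0 allows were worth 0.110 to 0.117 CPM, which covers counting error only.

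Exonic lengths came from GENCODE vM1 on mm9, matched for 14803 of the tested genes (93.0%). Promoters came from the RefSeq table of GRCm38.p6, in which all 8 genes were found, with 13 promoters, and were placed on mm9 by exact match.

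The 8 genes, the lists, the tests and the alternatives were chosen with earlier results of these data known. Of each pathway list, genes called by edgeR or otherwise the first 4 tested as written are named. For each of the 8 genes, the 2 genes with the smallest root mean square difference of centred log2 levels (0.5 CPM added) are named, leaving out predicted and sex-linked genes. Other genes were named after their values were seen. A few list members are not reported here.

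The alternatives were no filter, a minimum of 1 CPM, DESeq2 size factors in edgeR, totals that omit the 10 most abundant genes, limma-voom (limma 3.58.1), DESeq2 1.42.0, the replicate number as a block, a sex covariate, KO replicate 1 alone, offsets on exonic length and GC content without and with the block, leaving out each library, and a threshold of 0.1 for the adjusted p. The fitting code was tested on simulated counts, from which no value is quoted. Plots were made in matplotlib 3.10.9 under Python 3.11.15.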

Additional observations from a re-analysis of the deposited data

How the results depend on the processing

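The log2 fold changes of Tet1, Tet2, Tet3, Dnmt1, Dnmt3a and Dnmt3b were below 0 in all 17 alternatives that gave a fold change, those of Tdg in 16 and of Uhrf1 in 10. The sex covariate and KO replicate 1 alone are not separate checks. All WT libraries were male, so with the covariate the genotype difference rests on KO replicate 1, the male KO library. Tet2 had -1.475 with the covariate and -1.474 with KO replicate 1 alone. Leaving out each library moved Tet2 between -1.42 and -1.20, Tet3 between -0.99 and -0.81, Tet1 between -0.67 and -0.49, and Dnmt3a between -0.79 and -0.52. The number of genes called did depend on the processing, and the cause was not tested. Against 27 genes called lower and 0 higher by edgeR, DESeq2 called 437 lower and 209 higher and limma-voom 0. An adjusted p below 0.1 gave 125 lower and 7 higher, Tet2 and Tet3 among the lower. A sex covariate and the offsets on length and GC content gave 0 lower, and KO replicate 1 alone gave 0 lower and 1 higher. Leaving out each library gave 0 to 80 lower and 0 to 9 higher: 80 and 9 without WT replicate 3, where Tet2 and Tet3 were called, 4 and 1 without KO replicate 1, and 0 in both directions without any other library. Tet2 was also called with at least 1 CPM as the filter, with no filter (as was Tet3) and with totals that omit the 10 most abundant genes. In the pathway, beta cell, germline and cell cycle lists together, edgeR called 0 and DESeq2 called 6 lower and 4 higher. Leaving out a library gave 0 to 1 lower (Nsd1 without WT replicate 3).

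The replicate number as a block gave 0 genes lower, alone and with the offsets. The labels do not say whether same-numbered libraries belong together. Their deviations correlated at 0.195, 0.032 and 0.056, and those of differently numbered KO and WT libraries at -0.156 to 0.077. Acinar markers fell from replicate 1 to replicate 3 in both genotypes. They summed to 40517, 28626 and 15495 CPM in KO and 65595, 34968 and 20525 CPM in WT. Whether the numbers stand for a shared origin was not tested.

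The differences of Tdg, Dnmt1, Dnmt3b and Uhrf1 were each under 2 SE.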

Other observations

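Genes that beta cells normally keep low, some of them linked to Dnmt3a in mouse islets, were examined beside Dnmt3a. Of 22 such genes edgeR called 0 after Benjamini-Hochberg adjustment, beside 0.170% of all genes. None of the 22 had groups that did not overlap, beside 12.1% of all genes lower and 11.3% higher. A log2 fold change below 0 was found in 13 of 22, beside 49.7% of all genes, with a median of -0.06. At an unadjusted p below 0.05, 0 were lower and 1 was higher, beside 9.38% and 6.99% of all genes. Ldha, lactate dehydrogenase A, held 35.2, 25.8 and 27.0 CPM in KO and 30.5, 49.3 and 16.9 CPM in WT. The hexokinase genes Hk1 and Hk2 had log2 fold changes of -0.09 (SE 0.20) and -0.12 (SE 0.41), and the monocarboxylate transporter gene Slc16a1 had 0.11 (SE 0.30). The gene with the unadjusted p below 0.05 was Cxcl12, a chemokine also made by stromal cells, with 16.9, 17.5 and 5.28 CPM in KO and 5.57, 4.83 and 4.34 CPM in WT. KO replicate 3 lay close to the WT libraries there. The stellate and fibroblast markers summed to 370, 354 and 269 CPM in KO and 211, 245 and 341 CPM in WT, and their part in the Cxcl12 difference was not tested.

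Genes of the germ line, which promoter methylation keeps silent in somatic tissues, were mostly at or near 0 counts. Of 16 such genes, 7 had 0 counts in all 6 libraries and 3 passed the filter. Of these 3, edgeR called 0, beside 0.170% of all genes. In either direction 0 had an unadjusted p below 0.05, beside 9.38% of all genes lower and 6.99% higher. With 3 genes tested, nothing is read from these counts. The highest of the 16 genes was Brdt, a testis bromodomain gene, with 6.21 ± 1.29 CPM in KO and 6.25 ± 0.252 CPM in WT. Dnmt3l, the germ cell partner of the DNMT3 enzymes, had 0, 0 and 1 counts in KO and 0 in each WT library.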
